A study of Homo sapiens with 18 samples.

Results

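The comparison set the IDH2 R140Q clones against the wild-type clones of an expression array series of HCT116, an established human colorectal carcinoma line. The members were chosen by their titles: 4 arrays of 2 clones labelled IDH2 R140Q/+, named 8G12 and 17H5, and 4 arrays of 2 clones labelled wild-type at the mRNA level, named 16F8 and parental. These are 8 of the 18 arrays, and the other 10 come from clones with IDH2 R172K (47C2 and 45G3), IDH1 R132H (2C11 and 2H1) and IDH1 R132C (3A4), all heterozygous in the titles. Each clone was measured as 2 biological replicates after 6 days of growth with no treatment. The clones are described as isogenic, and parental stands for the line itself. By its title 16F8 carries an IDH1 R132C allele that it does not express, so its IDH1 level may not be that of an unmodified line. The labels do not say what separated the biological replicates of a clone, so p-values between clones measure only the spread between these arrays. The R140Q and the wild-type group each have 2 clones, and a difference shared by the arrays of 1 clone may belong to that clone rather than to the mutation.

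IDH2 encodes the mitochondrial NADP-dependent isocitrate dehydrogenase, which converts isocitrate to 2-oxoglutarate, and IDH1 encodes its cytosolic counterpart. Substitution of arginine 140 in IDH2, known from acute myeloid leukaemia, gives an enzyme that reduces 2-oxoglutarate to D-2-hydroxyglutarate. That metabolite inhibits dioxygenases that use 2-oxoglutarate, among them TET enzymes that demethylate DNA, histone demethylases and prolyl hydroxylases. By its title the series was about such mutations, the transcription factor ZEB1 and a move of epithelial cells towards a mesenchymal state.

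The values are MAS5 signals, probe set intensities, deposited on 1 common scale: with 2% of probe sets trimmed at each end, the mean was 149.98 to 149.99 in every array. Differences are given as log2(signal + 2.2) with standard errors, a scale that understates the change of dim genes. Of 19775 genes on the array 12541 were tested. Array medians lay between 12.3 and 15.6, and arrays give no counts, so the number of arrays, 2 per clone, limits the precision. Of 12 colon epithelial markers EPCAM, KRT8, KRT18, KRT19 and CDH1, which are general to epithelia, were bright in all 8 arrays. KRT18 reached 2979.8 to 3969.9 in R140Q arrays and 3010.7 to 4766.0 in wild-type arrays, and the 12 markers summed to 10650.5 to 12089.1 in R140Q arrays and 10157.7 to 14745.6 in wild-type arrays. The markers of gut identity were dim. CDX2 lay at 36.1 to 46.9 in R140Q arrays and 41.4 to 55.1 in wild-type arrays, and KRT20 at 35.1 to 52.2 and 37.5 to 44.9. The markers CDX1, VIL1, CDH17, LGALS4 and GPA33 stayed under 9 in all 8 arrays. The leukocyte marker PTPRC lay at 0.2 to 3.6 in R140Q arrays and 0.2 to 1.7 in wild-type arrays. The 9 haematopoietic markers on the array, led by LYZ at 12.9 to 23.7 in R140Q arrays and 8.2 to 19.4 in wild-type arrays, summed to 42.1 to 77.3 in R140Q arrays and 32.3 to 41.4 in wild-type arrays, ranges that did not overlap, and their part in the results was not tested. Of 11 fibroblast markers 9 stayed under 20 in both sets, COL3A1 among them at 0.5 to 3.1 in R140Q arrays and 0.2 to 1.9 in wild-type arrays. The other two were COL1A1, at 212.2 to 299.5 in R140Q arrays and 227.2 to 358.5 in wild-type arrays, and ACTA2, at 113.5 to 140.8 in R140Q arrays and 107.9 to 154.4 in wild-type arrays. Of 8 neural markers SYT1 alone was bright, at 853.6 to 1079.9 in R140Q arrays and 813.3 to 1300.8 in wild-type arrays. RBFOX3 lay at 16.1 to 29.9 in R140Q arrays and 26.2 to 37.1 in wild-type arrays, and the others did not exceed 21.0. The 8 endothelial markers summed to 41.2 to 58.6 in R140Q arrays and 33.0 to 63.3 in wild-type arrays. Replicate arrays of a clone correlated at 0.9868 to 0.9893 in these 4 clones. Spiked poly-A controls were over 0.5 (log2) above the series median in 3 of the 8 arrays, 8G12 replicate 2, 16F8 replicate 1 and parental replicate 1. The counts of genes were also taken with the poly-A level as a term in the fit and without these arrays.

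IDH2 itself was higher in both R140Q clones. Its signals were 242.4 and 305.1 in 8G12 and 224.9 and 228.6 in 17H5, against 123.8 and 120.7 in 16F8 and 152.6 and 101.7 in parental. All 4 R140Q arrays lay above all 4 wild-type arrays, and the lowest R140Q array exceeded the highest wild-type array by 0.55 (log2). The rise was 1.14 ± 0.21 in 8G12 and 0.88 ± 0.21 in 17H5 against 16F8 (limma adjusted p = 0.0122 and 0.0148), and 1.11 ± 0.21 and 0.85 ± 0.21 against parental (adjusted p = 0.00125 and 0.0138). A second IDH2 probe set read 192.7 and 176.8 in 8G12, 182.6 and 169.0 in 17H5, 124.5 and 132.7 in 16F8, and 60.1 and 68.3 in parental. On it the R140Q arrays were again the 4 highest, but 16F8 lay between them and parental. With that probe set the differences from 16F8 were 0.51 in 8G12 and 0.44 in 17H5 and did not pass (adjusted p = 0.485 and 0.171). The calls also rested on single arrays. Against 16F8, 8G12 no longer passed without its replicate 2 (0.97, adjusted p = 0.184) or without either 16F8 array (1.16 and 1.12), and 17H5 lost its call without either of its arrays or either 16F8 array (0.86 to 0.90). Against parental the 17H5 call ended without either of its arrays (0.86 and 0.84) or without parental replicate 2 (0.56). The R172K clones, which carry the other IDH2 mutation, had mean IDH2 signals of 166 ± 0.495 in 47C2 and 158 ± 26.5 in 45G3 (SD, n = 2). A probe set sums both alleles of the gene.

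On its brightest probe set IDH1 ran between the references. Its signals were 1468.3 and 1343.7 in 8G12 and 1466.1 and 1463.1 in 17H5, against 1036.1 and 1212.5 in 16F8 and 1693.5 and 2008.4 in parental. The R140Q arrays lay below both parental arrays and above both 16F8 arrays, as they did on a second bright IDH1 probe set. A dim probe set of the same gene ran otherwise, with 14.1 and 20.1 in 8G12 and 33.9 and 28.4 in 17H5, against 10.5 and 11 in 16F8 and 24.5 and 17.8 in parental. In the test 8G12 fell relative to parental (-0.39 ± 0.12, adjusted p = 0.0272), a call that ended without 8G12 replicate 1, 8G12 replicate 2 or parental replicate 2. The differences of 17H5 from parental (-0.33) and of both clones from 16F8 (0.33 and 0.39) did not pass. Of the 14 tested genes of a list of isocitrate, 2-oxoglutarate and 2-hydroxyglutarate enzymes, IDH2 passed in the same direction in all 4 comparisons of an R140Q clone with a reference, and no other member did. GOT1, the cytosolic aspartate transaminase that uses 2-oxoglutarate, read 1054.3 and 1166.6 in 8G12 and 1523.2 and 1311.0 in 17H5, against 1066.2 and 1146.5 in 16F8 and 2087.3 and 2113.5 in parental. It fell against parental in 8G12 (-0.92 ± 0.10) and 17H5 (-0.57 ± 0.10). Against 16F8 the same gene differed by 0.00 in 8G12 and rose by 0.35 in 17H5 (adjusted p = 0.0349), a call lost without 17H5 replicate 1 or either 16F8 array. D2HGDH, the mitochondrial enzyme that oxidises D-2-hydroxyglutarate, passed in none of the 4, with signals of 70.7 to 118.9 in R140Q arrays and 63.0 to 100.7 in wild-type arrays.

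**Figure D1:**
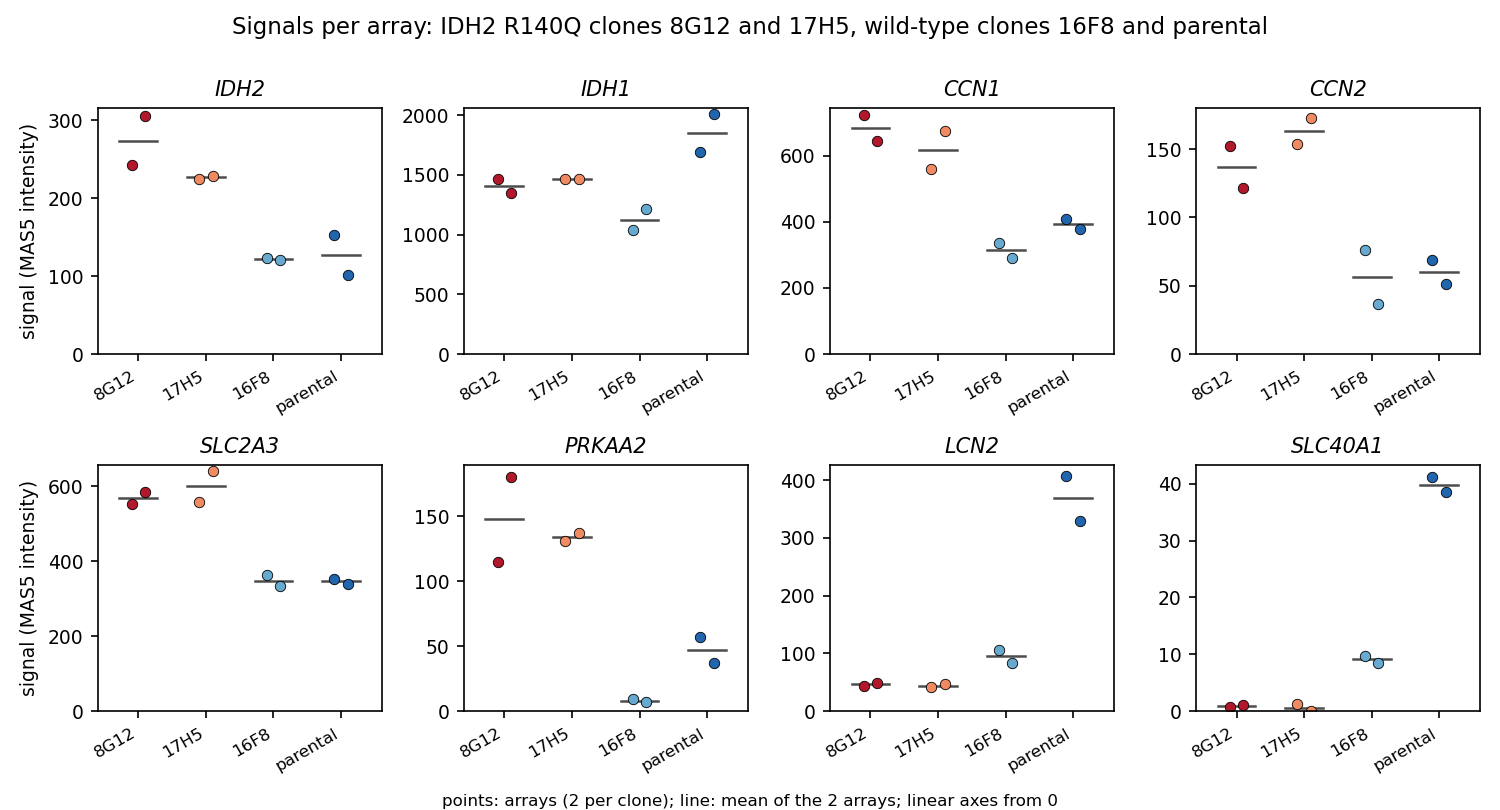
MAS5 signal (linear axis from 0) of 8 genes in each array of 8G12, 17H5, 16F8 and parental; points are arrays and lines the mean of the 2 arrays of a clone. IDH2, CCN1, CCN2, SLC2A3 and PRKAA2 were higher in all 4 R140Q arrays than in all 4 wild-type arrays, LCN2 and SLC40A1 lower, and IDH1 of the R140Q clones lay between the references.

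Across all genes, what the R140Q clones differed in depended on the reference. Against parental, 8G12 had 2314 genes past limma's adjusted p of 0.05 (18.5% of those tested), 1430 higher (11.4%) and 884 lower (7.05%). Against 16F8 the same clone had 79 (0.63%), 66 higher (0.526%) and 13 lower (0.104%). For 17H5 the count was 1484 against parental (11.8%), 862 higher (6.87%) and 622 lower (4.96%), and 1072 against 16F8 (8.55%), 555 higher (4.43%) and 517 lower (4.12%). The references themselves differed from each other in 2760 genes (22%), with 1560 higher (12.4%) and 1200 lower (9.57%) in 16F8. The R140Q clones differed from each other in 422 (3.36%), with 198 higher (1.58%) and 224 lower (1.79%) in 17H5. Each pair of counts that shares a clone shares its arrays. With the poly-A level as a term the counts were 2773 for 8G12 and 1739 for 17H5 against parental, and 110 for 8G12 and 1158 for 17H5 against 16F8. The counts moved with single arrays: without 17H5 replicate 2 the 17H5 counts were 506 against parental and 282 against 16F8. The 17H5 counts against parental were 925 without 17H5 replicate 1, 904 without parental replicate 1 and 856 without parental replicate 2. Against 16F8, 17H5 had 523 without 16F8 replicate 1 and 531 without 16F8 replicate 2. The 8G12 counts were 1330 and 1248 against parental without 8G12 replicate 1 and without parental replicate 2. Against 16F8 they were 36, 40, 45 and 38 without 8G12 replicate 1, 8G12 replicate 2, 16F8 replicate 1 and 16F8 replicate 2. The smaller list counts without an array, given further below, come from such fits, in which fewer of all genes passed as well.

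The array profiles gave the same order. Arrays of 8G12 and 16F8 correlated at 0.9832 to 0.9899, while 8G12 and parental correlated at 0.9723 to 0.9785. The 8G12 replicates correlated at 0.987. Above that lay the pairs alike in poly-A controls, 16F8 replicate 1 with 8G12 replicate 2 (0.9899) and 16F8 replicate 2 with 8G12 replicate 1 (0.9889). Below it lay the pairs unlike in poly-A controls (0.9832 and 0.9847). The part of the poly-A level in this was not tested. Arrays of 17H5 correlated at 0.9753 to 0.982 with 16F8 and at 0.9749 to 0.9816 with parental. Between 8G12 and 16F8 89 genes differed by more than 2-fold, against 502 between 8G12 and parental, 255 between 17H5 and 16F8, 337 between 17H5 and parental, and 550 between 16F8 and parental.

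**Figure D2:**
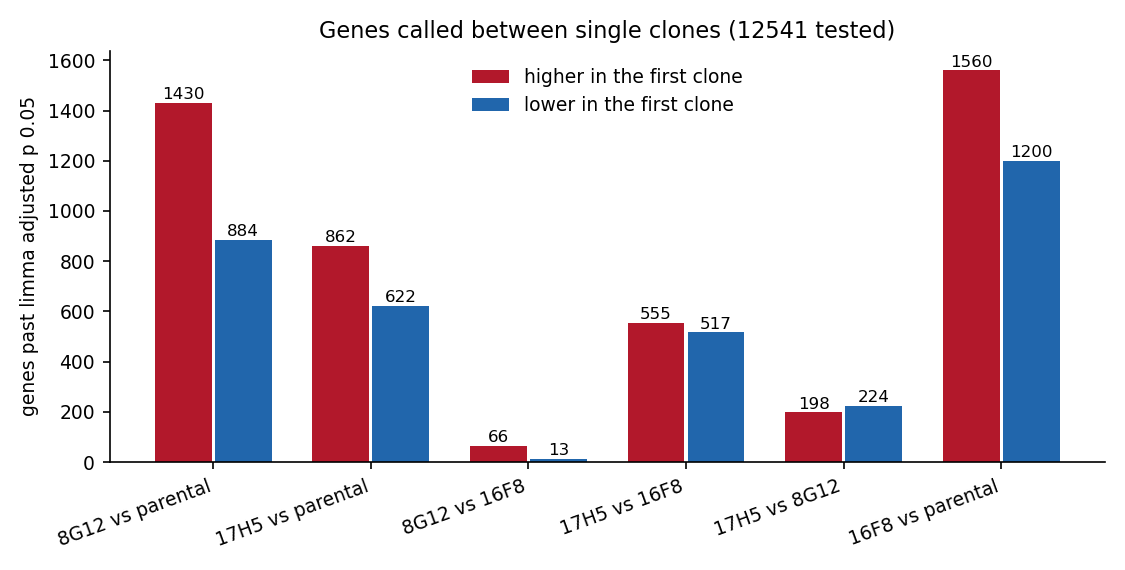
Number of genes (of 12541 tested) past limma's adjusted p of 0.05 between single clones, higher and lower in the clone named first. 8G12 differed from 16F8 in 79 genes and from parental in 2314, while 16F8 and parental differed in 2760.

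With the clone as the unit, no gene passed as a difference between the R140Q and the wild-type genotype. The limma test on 9 clone means gave 0 of 12541 genes, with 348 (2.77%) at an unadjusted p under 0.05 and a smallest adjusted p of 0.999. A separate question was whether a gene differed in the same direction in all 4 comparisons of an R140Q clone with a reference. Its limma test took the array as the unit, so it compared these clones and not the genotypes. It gave 0 genes after adjustment over all genes (smallest adjusted p = 0.408). At an unadjusted p under 0.05 in each of the 4 there were 60 genes (0.478%). Without 16F8 replicate 1 the test over 4 comparisons had 1 gene. With parental alone as the reference the 2 tests had 16 and 724 genes, and with 16F8 alone 1 and 33. The genes with the smallest p in the genotype test were IDH2 (1.00 ± 0.16), CCN1 (0.88 ± 0.15) and CCN2 (1.37 ± 0.26), each with adjusted p = 0.999. As a description, 503 genes (4.01%) had all 4 R140Q arrays on 1 side of all 4 wild-type arrays, 335 higher (2.67%) and 168 lower (1.34%). With quantile normalization the same count was 251 higher and 223 lower. Leaving out 1 array loosens the criterion and gave 720 (without 17H5 replicate 2) to 1136 (without 16F8 replicate 2).

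In each of the 4 single comparisons taken alone 8 genes passed in 1 direction. IDH2, CCN1, CCN2, SLC2A3, PRKAA2 and PIK3R1 were higher and LCN2 and SLC40A1 lower. They are named for that or for the gap between the arrays, so their separation describes the choice. CCN1 and CCN2 encode secreted matricellular proteins of the CCN family and are textbook targets of YAP and TEAD, the transcription factors of the Hippo pathway. CCN1 read 722.3 and 644.5 in 8G12 and 559.8 and 675.2 in 17H5, against 335.7 and 291.4 in 16F8 and 408.9 and 377.0 in parental. CCN2 read 152.2 and 121.3 in 8G12 and 153.7 and 173.2 in 17H5, against 76.4 and 36.6 in 16F8 and 69.1 and 51.5 in parental. In both genes the 4 R140Q arrays lay above the 4 wild-type arrays, by at least 0.45 (log2) in CCN1 and 0.65 in CCN2. CCN1 rose by 1.12 ± 0.14 in 8G12 and 0.97 ± 0.14 in 17H5 against 16F8, and by 0.79 ± 0.14 and 0.64 ± 0.14 against parental (adjusted p at most 0.00775). CCN2 rose by 1.32 ± 0.24 and 1.58 ± 0.24 against 16F8 and by 1.16 ± 0.24 and 1.42 ± 0.24 against parental (adjusted p at most 0.0111). The CCN1 call in 17H5 against parental ended without 17H5 replicate 2 (0.51) or parental replicate 2 (0.59). The CCN2 call in 8G12 against 16F8 ended without 8G12 replicate 1 (1.16) or 16F8 replicate 2 (0.81). The other mutant clones also held more CCN2 than the references, with mean signals from 102 ± 6.86 in 2C11 to 189 ± 6.22 in 2H1 (SD, n = 2), and R140Q did not differ from them in the test (0.12 ± 0.22, adjusted p = 0.844). For CCN1 the other mutants averaged 383 ± 21.1 in 2H1 to 483 ± 34.3 in 3A4, below both R140Q clones (0.62 ± 0.13, adjusted p = 0.141, not past the threshold).

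The promoter of CCN2 is printed because TEAD sites close to the start are part of how this gene is known to be read by YAP. The window holds the 250 bases before its start (chr6:131951373-131951622, minus strand, RefSeq on GRCh38.p14). The letters GGAATG, searched on both strands (CATTCC on the other), are in capitals and occur 3 times, with 163, 98 and 89 bases between the match and the start.
CCN2 promoter: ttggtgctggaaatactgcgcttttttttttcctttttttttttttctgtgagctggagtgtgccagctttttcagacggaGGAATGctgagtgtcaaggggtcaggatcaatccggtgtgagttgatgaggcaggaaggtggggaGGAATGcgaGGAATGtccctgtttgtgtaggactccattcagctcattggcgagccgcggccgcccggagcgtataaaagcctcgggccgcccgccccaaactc
The same letters lay in 4175 of 35116 RefSeq promoter windows of that length (11.89%), and in 9 of 18 genes of the YAP and TEAD list that matched the table. The first count is of windows and the second of genes with a match in any of their windows, so they are unlike measures. A match is a description of the sequence and does not show binding in these cells.

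Of 24 genes of the YAP and TEAD list 19 were tested. In 8G12, 4 were higher and 3 lower against parental, and 2 were higher against 16F8, CCN1 and CCN2. In 17H5, 5 were higher and 2 lower against parental, and 5 were higher against 16F8. The higher calls were 21.1% of the list in 8G12 and 26.3% in 17H5 against parental, where 11.4% and 6.87% of all genes were higher, and 10.5% and 26.3% against 16F8, where the shares of all genes were 0.526% and 4.43%. CCN1 and CCN2, already named for being higher, are counted in each of these shares, which are not independent of that choice. The lower calls were 15.8% in 8G12 and 10.5% in 17H5 against parental, with 7.05% and 4.96% of all genes. The medians of the list were 0.09 in 8G12 and 0.25 in 17H5 against 16F8, and 0.10 and 0.14 against parental, where the medians of all genes were 0.02, -0.00, 0.04 and 0.02. AJUBA, a LIM protein that restrains LATS kinases, was higher in 17H5, with 642.8 and 702.2, against 331.5 and 311.9 in 16F8 and 352.7 and 368.9 in parental. In 8G12 it read 409.0 and 366.7 and did not pass against either reference. With the AJUBA probe set of highest variance the 17H5 differences were 0.34 against 16F8 and 1.00 against parental and did not pass. NT5E, the ectonucleotidase CD73, went opposite ways by reference in 17H5, at -0.92 against parental and 0.67 against 16F8, the second lost without either 17H5 array or 16F8 replicate 2. Without 17H5 replicate 2 the 17H5 counts of higher genes fell to 2 against parental and 3 against 16F8. Without parental replicate 1 the higher counts against parental were 2 in 8G12 and 3 in 17H5, and without 8G12 replicate 1 or 16F8 replicate 2 the 8G12 count against 16F8 was 1.

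SLC2A3 and PRKAA2 are linked to glucose and energy supply. SLC2A3 encodes the glucose transporter GLUT3 and read 551.5 and 583.5 in 8G12 and 559.4 and 640.8 in 17H5, against 362.8 and 333.7 in 16F8 and 351.5 and 340.5 in parental. The references were level with each other (0.01 ± 0.13) and both R140Q clones lay above them, by 0.70 and 0.78 against 16F8 and 0.71 and 0.79 against parental, each ± 0.13 (adjusted p at most 0.0162). The call in 8G12 against 16F8 ended when any of these 4 arrays was left out (0.64 to 0.76). The other mutants had mean SLC2A3 signals of 706 in 45G3, 455 in 2H1, 311 in 47C2, 118 in 2C11 and 88.2 in 3A4. PRKAA2 encodes the catalytic alpha2 subunit of AMP-activated kinase, the energy sensor. It read 115.0 and 180.7 in 8G12 and 131.4 and 137.0 in 17H5, against 9.0 and 6.9 in 16F8 and 57.4 and 37.4 in parental. The R140Q arrays were above every wild-type array by at least 0.98 (log2), and the references stood far apart, 16F8 minus parental being -2.27 ± 0.33. The rise was 3.86 ± 0.33 in 8G12 and 3.76 ± 0.33 in 17H5 against 16F8, and 1.59 ± 0.33 and 1.49 ± 0.33 against parental. The 17H5 call against parental ended without 17H5 replicate 2 (1.46, adjusted p = 0.0614) or parental replicate 2 (1.19). PRKAA2 averaged 118 in 2C11 and 121 in 3A4 too, but 3.95 in 2H1, 4.5 in 47C2 and 13.35 in 45G3, so 2C11 and 2H1, both IDH1 R132H, stood far apart.

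PIK3R1 encodes the p85alpha regulatory subunit of phosphoinositide 3-kinase, and was singled out after its values were seen. It read 480.4 and 453.8 in 8G12 and 405.6 and 421.8 in 17H5, against 289.4 and 330.1 in 16F8 and 282.4 and 233.2 in parental. The R140Q arrays lay above the wild-type arrays by at least 0.30 (log2). The rise was 0.59 ± 0.11 in 8G12 and 0.42 ± 0.11 in 17H5 against 16F8, and 0.86 ± 0.11 and 0.68 ± 0.11 against parental (adjusted p at most 0.0274). Against 16F8 the 8G12 call ended without either 8G12 array (0.55 and 0.63) or 16F8 replicate 1 (0.50), and the 17H5 call without either 17H5 array (0.45 and 0.39) or 16F8 replicate 1 (0.32). With the probe set of highest variance none of the 4 passed, at 0.63 to 0.86. Mean PIK3R1 signals of 443 in 47C2, 433 in 2C11 and 444 in 2H1 were close to the R140Q level, and those of 45G3 (247) and 3A4 (236.5) to parental.

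LCN2 and SLC40A1 were the genes that passed as lower in all 4 comparisons, and both handle iron: LCN2 encodes lipocalin, which binds iron-carrying siderophores, and SLC40A1 encodes ferroportin, the exporter of cellular iron. LCN2 read 43.9 and 48.8 in 8G12 and 41.2 and 46.6 in 17H5, against 106.3 and 83.9 in 16F8 and 407.3 and 328.8 in parental. All 4 R140Q arrays lay below all 4 wild-type arrays, and parental stood above 16F8. LCN2 fell in 8G12 (-1.0 ± 0.18) and 17H5 (-1.07 ± 0.18) against 16F8, and in 8G12 (-2.92 ± 0.18) and 17H5 (-3.00 ± 0.18) against parental. The 8G12 call against 16F8 ended without 8G12 replicate 1 (-0.92), 8G12 replicate 2 (-1.07) or 16F8 replicate 1 (-0.83). SLC40A1 read 0.7 and 1.0 in 8G12 and 1.2 and 0.0 in 17H5, against 9.7 and 8.5 in 16F8 and 41.2 and 38.5 in parental. The R140Q signals were at the bottom of the scale, where 15.4% of all values lay under 1, and those of 16F8 were below the array medians. The filter for testing asks that both arrays of a clone reach the array median. Of the R140Q and wild-type clones only parental did so for SLC40A1, so its height above the others is in part a condition of testing. The fitted changes were -1.89 ± 0.39 in 8G12 and -2.04 ± 0.39 in 17H5 against 16F8 and -3.79 ± 0.39 and -3.94 ± 0.39 against parental, and they depend on the offset. With an offset of 10 the change in 8G12 against 16F8 was -0.82 and did not pass (adjusted p = 0.0723), and it also ended when any of its 4 arrays was left out (-1.81 to -1.97). The 17H5 call against 16F8 ended without 17H5 replicate 2 (-1.73, adjusted p = 0.0606). LCN2 was also low in the other mutants, which averaged 25.95 to 64.8, and R140Q minus the other mutants was 0.05 ± 0.48 (adjusted p = 0.979).

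Of the 15 tested genes of a list of iron handling and lipocalin, 5 were lower and 2 higher in 8G12 against parental. Against 16F8 2 were lower, LCN2 and SLC40A1. In 17H5 4 were lower and 1 higher against parental, and 5 were lower against 16F8. The lower calls were 33.3% of the list in 8G12 and 26.7% in 17H5 against parental, where 7.05% and 4.96% of all genes were lower, and 13.3% and 33.3% against 16F8, where 0.104% and 4.12% of all genes were. LCN2 and SLC40A1, already named for being lower, are counted in each of these shares, which are not independent of that choice. The higher calls against parental, 13.3% and 6.67%, stood beside 11.4% and 6.87% of all genes. HMOX1, the haem oxygenase that frees iron from haem, read 65.0 and 69.8 in 8G12 and 75.2 and 53.3 in 17H5, against 90.1 and 79.3 in 16F8 and 105.9 and 96 in parental. Against parental it fell in 8G12 (-0.57) and 17H5 (-0.65), and both calls were lost to single arrays, in 8G12 to any of its own or the parental arrays and in 17H5 to its replicate 2 or either parental array (-0.41 to -0.72). BMP6, a ligand known to induce hepcidin in liver, was higher in 8G12 than in parental (43.3 and 35.6 against 10.9 and 16.6, 1.40). It was also higher in 17H5 than in parental (0.91, limma adjusted p = 0.0423), a call lost without either 17H5 array or parental replicate 1. The list's median was -0.08 in 8G12 and -0.20 in 17H5 against 16F8, and -0.10 and -0.20 against parental. Against parental the lower count in 8G12 was 2 without either 8G12 array or parental replicate 1 and 3 without parental replicate 2, and in 17H5 it was 2 without 17H5 replicate 2 or parental replicate 1. Against 16F8 it was 0 in 8G12 without either 8G12 array or 16F8 replicate 1 and 1 without 16F8 replicate 2. In 17H5 it was 2 without either 17H5 array or 16F8 replicate 2 and 3 without 16F8 replicate 1.

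Other genes with the widest gaps between the 2 sets of arrays were ROPN1, EFNA5, ILDR2 and MOXD1 on the higher side. EFNA5, an ephrin ligand of axon guidance, read 40.2 and 40.0 in 8G12 and 47.5 and 57.8 in 17H5, against 19.7 and 21.4 in 16F8 and 16.8 and 9.4 in parental. It rose against parental in 8G12 (1.51 ± 0.22) and 17H5 (1.88 ± 0.22) and against 16F8 in 17H5 (1.26 ± 0.22), and did not pass in 8G12 against 16F8 (0.90, adjusted p = 0.0841). The EFNA5 probe set of highest variance gave -0.66 and -0.60 against parental, so its direction depends on the probe set. ILDR2 read 113.9 to 148.8 in R140Q arrays and 23.7 to 77.2 in wild-type arrays, and MOXD1 255.2 to 297.9 in R140Q arrays and 105.4 to 175.1 in wild-type arrays. ROPN1, a testis-associated gene, was dim throughout at 14.1 to 15.6 in R140Q arrays and 4.2 to 7.5 in wild-type arrays. No wild-type array of ROPN1 reached the array median that the filter for testing asks for. On the lower side stood SPRR1B, EXO5, TSPY26P, ZNF419, NHLH1 and ZBED2, of which only ZBED2 was well above the array medians, with 164.5 to 234.2 in R140Q arrays and 319.7 to 515.5 in wild-type arrays. SPRR1B, a precursor of the cornified envelope, lay at 0.1 to 0.4 in R140Q arrays and 1.5 and 4.3 in 16F8, and at 35.2 and 23.3 in parental. EXO5, an exonuclease, lay at 0.4 to 3.6 in R140Q arrays, 7.0 and 8.5 in 16F8 and 28 and 28.4 in parental. For SPRR1B and EXO5 only parental of these clones met the filter for testing, so its height is in part a condition of testing. In 4 of these 6 lower genes, EXO5, SPRR1B, ZNF419 and ZBED2, the parental arrays were both above both 16F8 arrays.

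DNA replication and G1/S genes, among them the MCM helicase subunits, were mostly higher in both R140Q clones against parental, while against 16F8 none passed in 8G12 and some were lower in 17H5. Of 39 tested genes, 30 were higher and 1 lower in 8G12 against parental, and none passed against 16F8 in limma, where 0 genes were higher and 0 lower. In 17H5 25 were higher and 1 lower against parental, and 11 were lower and 0 higher against 16F8. The higher calls against parental were 76.9% of the list in 8G12 and 64.1% in 17H5, beside 11.4% and 6.87% of all genes, and the lower calls in 17H5 against 16F8 28.2% beside 4.12%. The lower calls against parental were 2.56% in each clone, beside 7.05% in 8G12 and 4.96% in 17H5. The medians were -0.04 in 8G12 and -0.24 in 17H5 against 16F8, and 0.76 and 0.45 against parental. The wild-type clone 16F8 differed from parental likewise, with 32 of the 39 higher and 1 lower and a median of 0.74, beside 12.4% of all genes higher. The list's median level (log2) was 9.28 in parental, 9.95 in 8G12, 9.64 in 17H5 and 10.07 in 16F8. In the other mutants it ran from 9.81 in 3A4 to 10.09 in 2C11 and 45G3, so a low level marked parental. MCM4 read 1205.4 and 1174.5 in 8G12 and 1322.7 and 1202.5 in 17H5, against 1112.7 and 1271.5 in 16F8 and 588.2 and 587.5 in parental. Only parental stood apart, and the differences were 1.01 ± 0.16 in 8G12 and 1.10 ± 0.16 in 17H5 against parental but 0.00 and 0.08 against 16F8. FEN1, the flap nuclease of lagging-strand synthesis, read 1693.8 and 1638.4 in 8G12 and 1053.9 and 990.4 in 17H5, against 1754.3 and 1916.9 in 16F8 and 971.9 and 899.7 in parental. Here 8G12 was level with 16F8 (-0.14) and 17H5 with parental (0.13), and 17H5 fell by 0.84 ± 0.08 against 16F8. Without 17H5 replicate 2 the counts in 17H5 were 14 higher against parental and 3 lower against 16F8. Without 17H5 replicate 1 they were 16 and 5, without parental replicate 2 the first was 14, and without either 16F8 array the second was 5.

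Cholesterol synthesis genes followed the same order. Of 20 tested, 13 were higher in 8G12 against parental and 8 in 17H5, while against 16F8 none passed in 8G12 (0 in limma) and 4 were lower in 17H5. The higher calls against parental were 65% of the list in 8G12 and 40% in 17H5, beside 11.4% and 6.87% of all genes. The lower calls in 17H5 against 16F8 were 20%, beside 4.12%. In 16F8 against parental 13 of the 20 were higher and 0 lower, with a median of 0.55, beside 12.4% of all genes higher. The list's median level (log2) was 8.62 in parental, 9.16 in 8G12, 9.08 in 17H5 and 9.07 in 16F8. In the other mutants it ran from 8.64 in 3A4 to 9.02 in 2C11 and 45G3. INSIG1, which holds the SREBP regulators of sterol synthesis in the endoplasmic reticulum, read 1209.7 and 1054.4 in 8G12 and 1022.1 and 1057.7 in 17H5, against 1214.1 and 1347.9 in 16F8 and 568.2 and 612.3 in parental. It rose against parental by 0.93 ± 0.11 in 8G12 and 0.82 ± 0.11 in 17H5, and the differences from 16F8 (-0.18 and -0.30) did not pass. ACAT2, which makes acetoacetyl-CoA for sterols, read 876.4 and 887.0 in 8G12 and 655.2 and 631.7 in 17H5, against 946.4 and 886.8 in 16F8 and 426.4 and 306.8 in parental. It rose against parental by 1.28 ± 0.13 in 8G12 and 0.83 ± 0.13 in 17H5. The 4 lower calls in 17H5 against 16F8 went to 0 without 17H5 replicate 2 or 16F8 replicate 1, to 1 without 16F8 replicate 2 and to 2 without 17H5 replicate 1.

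**Figure D3:**
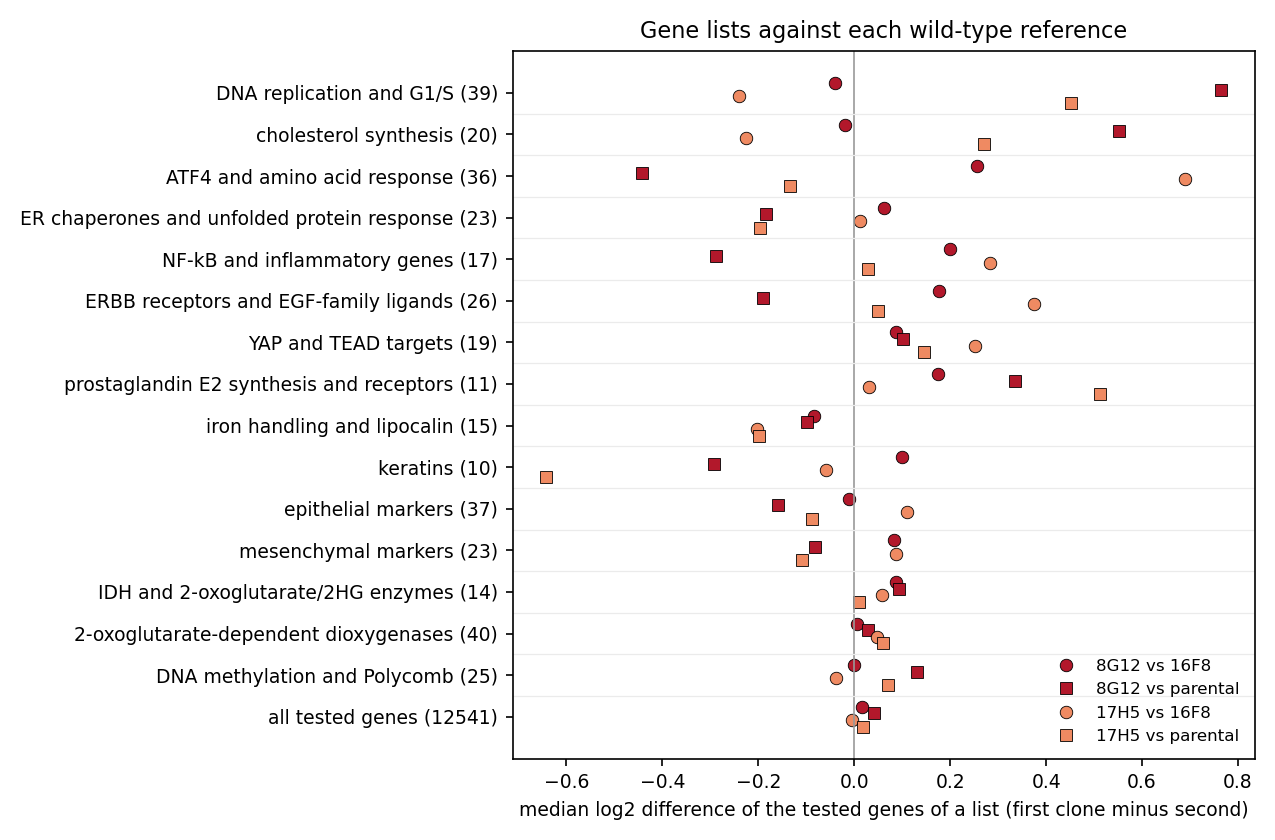
Median log2 difference over the tested genes of 15 gene lists and over all tested genes (number of genes in brackets), for 8G12 and 17H5 against 16F8 (circles) and parental (squares). DNA replication and cholesterol lists lay above 0 against parental and at or below 0 against 16F8, and the ATF4 list the other way round; comparisons with the same reference share its arrays.

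Targets of ATF4, the transcription factor of the amino acid and integrated stress response, differed in opposite directions by reference. Of 36 tested genes, 19 were lower and 0 higher in 8G12 against parental, and 8 were higher and 0 lower against 16F8. In 17H5 7 were lower and 4 higher against parental, and 24 were higher and 0 lower against 16F8. The higher calls against 16F8 were 22.2% of the list in 8G12 and 66.7% in 17H5, beside 0.526% and 4.43% of all genes, and the lower calls against parental 52.8% and 19.4%, beside 7.05% and 4.96%. The higher calls in 17H5 against parental were 11.1%, beside 6.87%. The medians were 0.26 in 8G12 and 0.69 in 17H5 against 16F8, and -0.44 and -0.13 against parental. The references stood further apart, with 29 of the 36 lower and 0 higher in 16F8 against parental and a median of -0.88, beside 9.57% of all genes lower. By the list's median level (log2) both R140Q clones lay between the references, at 9.65 in 8G12 and 10.19 in 17H5, against 9.12 in 16F8 and 10.47 in parental. CHAC1, which degrades glutathione, read 439.5 and 242.5 in 8G12 and 645.2 and 597.0 in 17H5, against 21.1 and 34.5 in 16F8 and 239.9 and 306.1 in parental. Only 16F8 lay low, and the rise against it was 3.49 ± 0.27 in 8G12 and 4.41 ± 0.27 in 17H5 (adjusted p = 1.24e-06 and 2.1e-08). Against parental CHAC1 differed by 0.27 in 8G12 and rose by 1.19 in 17H5, a call lost without either 17H5 array or parental replicate 1. DDIT3, the pro-apoptotic factor CHOP, read 296.8 and 328.3 in 8G12 and 790.5 and 732.6 in 17H5, against 92.2 and 70.3 in 16F8 and 423.6 and 324.1 in parental. It rose against 16F8 by 1.93 ± 0.17 in 8G12 and 3.21 ± 0.17 in 17H5, and against parental by 1.03 ± 0.17 in 17H5. ATF3, a stress-induced transcription factor, and SESN2, a leucine sensor that restrains mTORC1, were likewise lowest in 16F8 and highest in 17H5. Against 16F8 they rose by 1.33 and 1.73 in 8G12 and by 2.06 and 2.85 in 17H5, and against parental by 0.89 and 0.89 in 17H5, the SESN2 call there ending without 17H5 replicate 2.

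Other members of the list were instead highest in parental. ASNS, asparagine synthetase, read 1472.4 and 1285.4 in 8G12 and 2076.8 and 1995.1 in 17H5, against 978.8 and 1098.9 in 16F8 and 2689.9 and 3269.9 in parental. The clones ran in the order 16F8, 8G12, 17H5 and parental with no overlap of their arrays. ASNS fell against parental in 8G12 (-1.11 ± 0.11) and 17H5 (-0.54 ± 0.11), the second call ending without 17H5 replicate 2 or parental replicate 2, and rose against 16F8 by 0.97 ± 0.11 in 17H5. PHGDH, the entry enzyme of serine synthesis, fell against parental in 8G12 (-1.15 ± 0.14) and 17H5 (-0.89 ± 0.14). SLC7A11, the cystine importer, read 835.0 and 898.9 in 8G12 and 1880.5 and 1778.9 in 17H5, against 439.1 and 488.2 in 16F8 and 2271.9 and 2367.5 in parental. It fell by 1.42 ± 0.13 in 8G12 against parental and rose by 0.90 ± 0.13 in 8G12 and 1.98 ± 0.13 in 17H5 against 16F8. In 17H5 the lower calls of the list against parental were 3 without 17H5 replicate 2 and 4 without parental replicate 2, and the higher calls were 2 without 17H5 replicate 2.

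Promoters of CHAC1 and ASNS are shown because both hold the sequence that ATF4 is known to read, the CARE motif TGATGNAA (TTNCATCA on the other strand), with the match in capitals. The windows are the 250 bases before the start in RefSeq on GRCh38.p14, at chr15:40953221-40953470, plus strand for CHAC1 and chr7:97872409-97872658, minus strand for the upstream start of ASNS. In CHAC1 201 bases lie between the match, in its reverse form, and the start, and in ASNS 60 bases.
CHAC1 promoter: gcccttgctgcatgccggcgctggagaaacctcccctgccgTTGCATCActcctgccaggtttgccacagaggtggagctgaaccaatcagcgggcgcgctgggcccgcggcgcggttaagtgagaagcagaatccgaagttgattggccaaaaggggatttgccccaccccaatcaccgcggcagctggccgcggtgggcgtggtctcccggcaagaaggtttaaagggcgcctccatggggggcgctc
ASNS promoter: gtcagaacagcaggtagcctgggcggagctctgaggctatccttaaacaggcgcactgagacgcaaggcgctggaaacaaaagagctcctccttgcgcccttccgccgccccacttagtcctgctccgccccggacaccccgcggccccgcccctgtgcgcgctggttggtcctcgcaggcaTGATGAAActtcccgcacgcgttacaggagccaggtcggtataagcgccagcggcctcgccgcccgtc
The motif lay in 1104 of 35116 promoter windows (3.14%) and in 8 of 31 genes of the ATF4 list that matched the table (25.81%). The first share counts windows and the second genes with a match in any of their windows, so they are unlike measures. The window of the other ASNS start held no match. A match says nothing of binding in these clones.

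TRIB3, a pseudokinase that restrains AKT, read 346.6 and 245.3 in 8G12 and 815.0 and 831.1 in 17H5, against 150.9 and 151.2 in 16F8 and 846.8 and 887.3 in parental. It fell in 8G12 against parental (-1.56 ± 0.16), while 17H5 was at the parental level (-0.07), and it rose against 16F8 by 0.94 ± 0.16 in 8G12 and 2.43 ± 0.16 in 17H5. The TRIB3 call in 8G12 against 16F8 ended without 8G12 replicate 1 (0.69, adjusted p = 0.164) or either 16F8 array, and the probe set of highest variance gave no call there.

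In the other mutant clones some of these genes were low. Over the whole list the median level (log2) of the other mutants ran from 9.37 in 45G3 to 9.72 in 47C2. That of 8G12, 9.65, lay within this range, and that of 17H5, 10.19, above it. CHAC1 and DDIT3 are therefore not typical of the list in 8G12. CHAC1 averaged 31.8 to 47.7 and DDIT3 76.9 to 89.2 in the R172K, R132H and R132C clones. All 4 R140Q arrays lay above all 10 arrays of the other mutants for both genes. In the genotype test R140Q exceeded the other mutant clones by 3.53 ± 0.63 in CHAC1 and 2.54 ± 0.47 in DDIT3, with limma adjusted p = 0.126 for both, not past the threshold. Against R172K alone the differences were 3.73 ± 0.82 and 2.61 ± 0.61 (adjusted p = 0.493 for both).

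**Figure D4:**
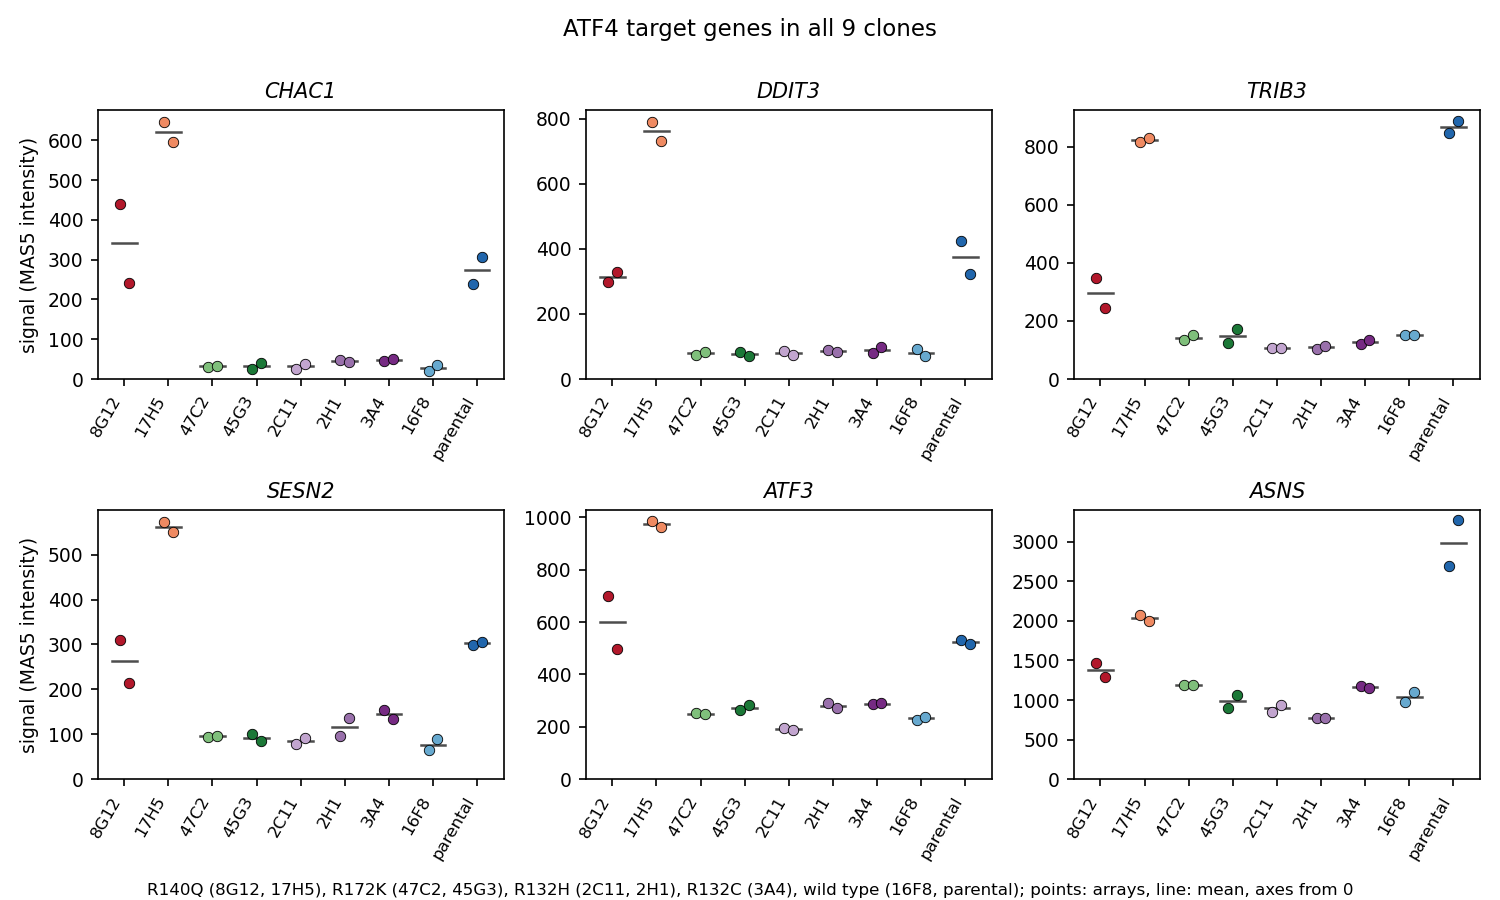
MAS5 signal (linear axes from 0) of 6 ATF4 targets in all 9 clones; points are arrays and lines the mean of the 2 arrays of a clone. CHAC1, DDIT3, SESN2 and ATF3 were high in 8G12, 17H5 and parental and low in 16F8 and the other mutants; TRIB3 was at the parental level in 17H5 alone, and ASNS was highest in parental.

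The series centred on the epithelial-mesenchymal transition, and 3 of its defining genes, ZEB1, CDH1 and VIM, overlapped between R140Q and wild-type arrays. ZEB1, the repressor of epithelial genes, read 140.6 and 175.5 in 8G12 and 118.2 and 115.8 in 17H5, against 101.7 and 116.7 in 16F8 and 145.2 and 153.5 in parental. CDH1, which encodes E-cadherin, read 1031.8 and 1040.2 in 8G12 and 1254.8 and 1363.9 in 17H5, against 1003.5 and 1044.9 in 16F8 and 1527.4 and 1596.1 in parental. VIM, the mesenchymal filament vimentin, read 111.2 and 151.6 in 8G12 and 98.5 and 79.8 in 17H5, against 83.3 and 83.4 in 16F8 and 164.4 and 132.2 in parental. R140Q minus wild-type was 0.09 ± 0.29 in ZEB1, -0.12 ± 0.27 in CDH1, -0.05 ± 0.33 in VIM and -0.11 ± 0.15 in EPCAM, an epithelial surface protein (adjusted p = 0.999 for each). Of the single comparisons CDH1 fell in 8G12 against parental (-0.59 ± 0.14, adjusted p = 0.00583), while it differed by 0.02 from 16F8. VIM fell in 17H5 against parental (-0.72 ± 0.16, adjusted p = 0.00785), a call lost without 17H5 replicate 2 or parental replicate 1, and differed by 0.09 from 16F8. In neither clone did ZEB1 or EPCAM pass.

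Marker lists of both states were counted in the same way. Of 37 tested epithelial markers, 8 were lower and 0 higher in 8G12 against parental, 6 lower and 2 higher in 17H5 against parental, and none passed in limma against 16F8 in either clone (0 and 0). The lower calls against parental were 21.6% of the list in 8G12 and 16.2% in 17H5, beside 7.05% and 4.96% of all genes. The higher calls in 17H5 against parental were 5.41%, beside 6.87%. The medians were -0.01 and 0.11 against 16F8 and -0.16 and -0.09 against parental. ELF3, an epithelial ETS factor, read 417.3 and 502.1 in 8G12 and 461.9 and 505.7 in 17H5, against 522.8 and 462.9 in 16F8 and 708.4 and 682.9 in parental, and fell against parental in 8G12 (-0.60) and 17H5 (-0.52), the 17H5 call lost without 17H5 replicate 1 or parental replicate 1. Of 23 tested mesenchymal markers, 3 were higher and 4 lower in 8G12 against parental and 1 higher and 3 lower in 17H5, and against 16F8 1 was higher in each clone, TGFBI in 8G12 and NT5E in 17H5. The lower calls against parental were 17.4% of the list in 8G12 and 13% in 17H5, beside 7.05% and 4.96% of all genes, and the higher calls 13% and 4.35%, beside 11.4% and 6.87%. The single higher call against 16F8 was 4.35% of the list in each clone, beside 0.526% of all genes in 8G12 and 4.43% in 17H5. SPARC, a matrix glycoprotein, had the largest rise of the list against parental in both clones, with 353.2 and 310.2 in 8G12 and 227.1 and 219.0 in 17H5, against 186.4 and 193.9 in 16F8 and 46.8 and 40.4 in parental. It rose by 2.87 ± 0.24 and 2.30 ± 0.24 against parental and did not pass against 16F8 (0.79 and 0.23). TNC, the matrix protein tenascin, went the other way against parental (-2.35 in 8G12 and -1.74 in 17H5), at signals of 1.6 to 4.4 in R140Q arrays, and its 17H5 call ended without either 17H5 array or parental replicate 2. The lower epithelial count in 17H5 against parental was 3 without 17H5 replicate 1, 1 without 17H5 replicate 2 and 2 without either parental array. The mesenchymal count against parental was 1 higher in 8G12 without 8G12 replicate 2 or parental replicate 2, 2 lower in 8G12 without parental replicate 2, and 1 lower in 17H5 without 17H5 replicate 2. The single calls against 16F8 went to 0 without 8G12 replicate 2, 16F8 replicate 1 or 16F8 replicate 2 in 8G12, and without either 17H5 array or 16F8 replicate 2 in 17H5.

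Set beside the other mutants, the R140Q clones had less ZEB1 and VIM and more CDH1 in every array. ZEB1 averaged 217 to 430, VIM 238 to 391 and CDH1 452 to 792 in the 5 other mutant clones. R140Q minus the other mutants was -1.20 ± 0.26 in ZEB1, -1.53 ± 0.27 in VIM and 1.05 ± 0.22 in CDH1 (limma adjusted p = 0.141, 0.126 and 0.141), none past the threshold. Against R172K, the other IDH2 mutation, the differences were -1.06 ± 0.29, -1.41 ± 0.33 and 1.01 ± 0.27 (adjusted p = 0.583, 0.493 and 0.544). A limma fit of single arrays, with clones as random blocks, did call these differences from the other mutants. Its adjusted p was 0.00348 for ZEB1, 0.000801 for VIM and 0.00438 for CDH1. The unit of that fit was the array in place of the clone mean. It called 254 genes and cannot replace the test on clone means, since only 2 clones carry R140Q. Tests on clone means called 0 of 12541 genes against the other mutants, with 1609 (12.8%) at an unadjusted p under 0.05. Against R172K they called 0, with 852 (6.79%). The smallest p against the other mutants was that of KRT23, a keratin of the gut. It read 534.6 and 516.4 in 8G12 and 299.9 and 259.2 in 17H5, against 368.7 and 307.5 in 16F8 and 711.2 and 653.9 in parental, while the other mutants averaged 33.5 to 93.8. The difference from the other mutants was 2.99 ± 0.41 (adjusted p = 0.0697), and it passed without 8G12 replicate 2 (3.00, adjusted p = 0.0486).

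**Figure D5:**
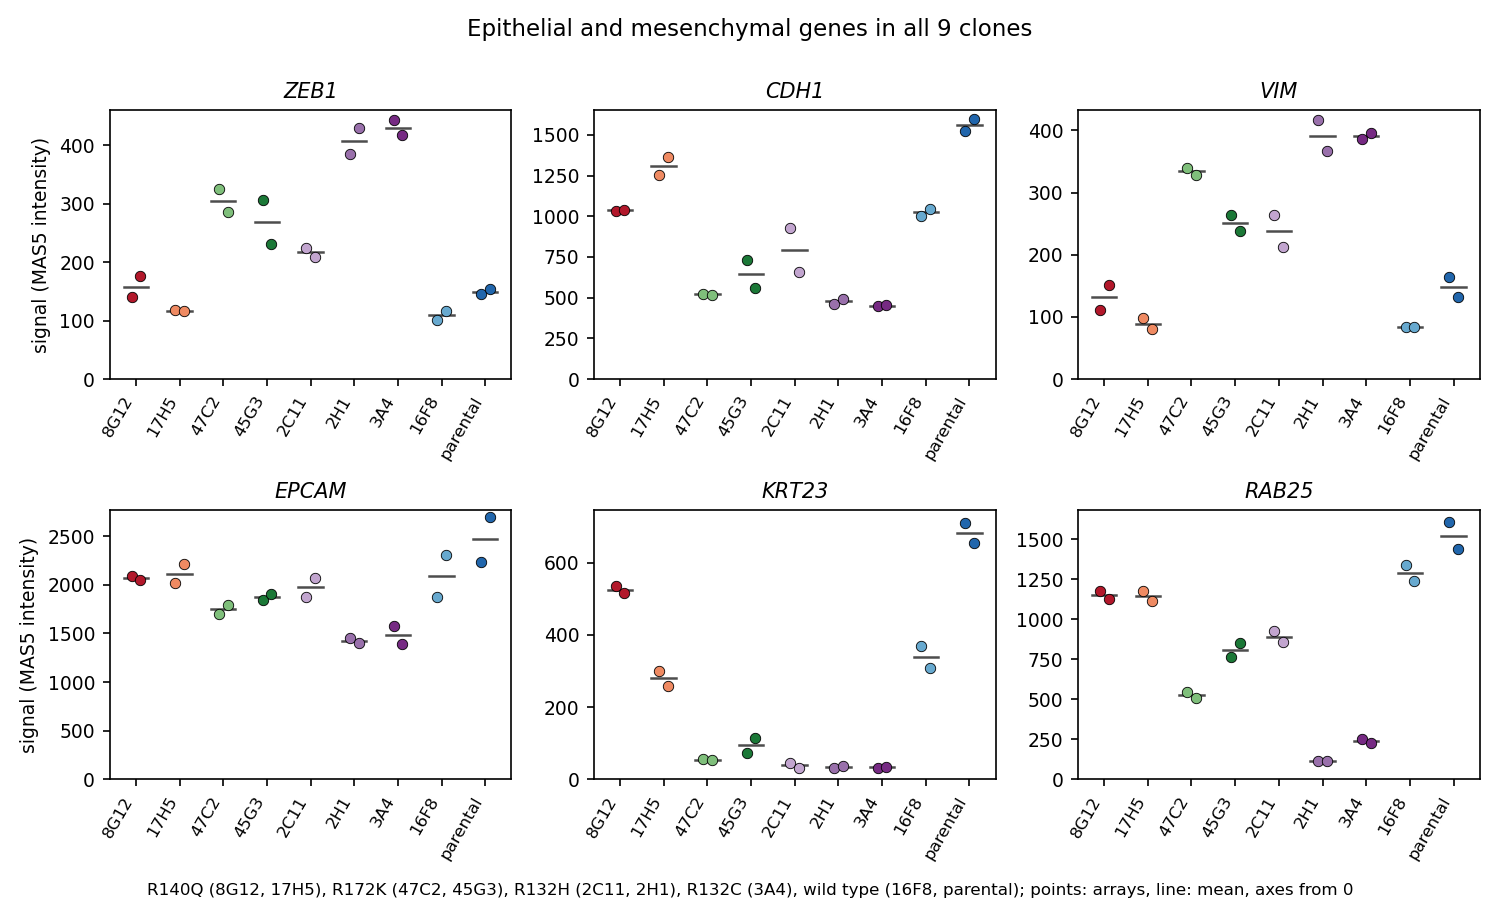
MAS5 signal (linear axes from 0) of 6 epithelial and mesenchymal genes in all 9 clones; points are arrays and lines the mean of the 2 arrays of a clone. ZEB1 and VIM of 8G12 and 17H5 lay near 16F8 and parental and below the other mutants, and CDH1 and KRT23 above the other mutants.

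Genes of the dioxygenases that use 2-oxoglutarate, the class that 2-hydroxyglutarate is known to inhibit, and of DNA methylation and Polycomb were counted as well. Of 40 tested genes of 2-oxoglutarate-dependent dioxygenases, 3 were higher and 3 lower in 8G12 against parental and none against 16F8 in limma (0 and 0). In 17H5 4 were higher and 3 lower against parental and 3 higher and 3 lower against 16F8. In 8G12 against parental 7.5% of the list was higher and 7.5% lower, near the 11.4% and 7.05% of all genes, and in 17H5 10% and 7.5%, beside 6.87% and 4.96%. Against 16F8 17H5 had 7.5% each way, beside 4.43% higher and 4.12% lower among all genes. The medians lay between 0.01 and 0.06 in the 4 comparisons. JMJD6, a lysyl hydroxylase of the JmjC family, read 461.1 and 412.7 in 8G12 and 218.6 and 207.5 in 17H5, against 549.8 and 520.4 in 16F8 and 353.0 and 319.7 in parental, and it fell in 17H5 against 16F8 (-1.32 ± 0.11) and parental (-0.65 ± 0.11). In 8G12 JMJD6 rose by 0.37 against parental, a call lost without 8G12 replicate 1 or parental replicate 2. KDM6B, an H3K27 demethylase, fell against parental in 8G12 (-0.79 ± 0.15) and rose against 16F8 in 17H5 (0.91 ± 0.15). Of 25 tested genes of DNA methylation and Polycomb, 4 were higher and 1 lower in 8G12 and 2 higher and 1 lower in 17H5 against parental, and against 16F8 0 in 8G12 and 2 lower in 17H5. The higher calls against parental were 16% of the list in 8G12 and 8% in 17H5, near the 11.4% and 6.87% of all genes, the lower ones 4% in each, beside 7.05% and 4.96%, and those against 16F8 in 17H5 8% beside 4.12%. SUV39H1, an H3K9 methyltransferase, rose against parental in 8G12 (0.83). UHRF1, which guides DNMT1 to replicated DNA, rose against parental by 0.63 in 17H5, and by 0.56 in 8G12, a call lost without 8G12 replicate 2. The higher dioxygenase count in 17H5 against parental was 2 without 17H5 replicate 1, 0 without 17H5 replicate 2 and 1 without either parental array, and in 8G12 it was 1 without parental replicate 2. The lower count in 17H5 was 1 against parental without either 17H5 array, and 1 against 16F8 without 17H5 replicate 2 or 16F8 replicate 1. The higher methylation count in 17H5 was 1 without either 17H5 array or parental replicate 2, and its lower count against 16F8 was 1 without 17H5 replicate 2 or 16F8 replicate 2. The single lower methylation calls against parental went to 0 without any array of the clone or of parental.

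Many of the widest single changes belonged to 1 R140Q clone. APOBEC3G, a cytidine deaminase, read 202.8 and 223.5 in 8G12 and 8.6 and 9.8 in 17H5, against 25 and 20.1 in 16F8 and 31.8 and 17.4 in parental. It rose in 8G12 by 3.13 ± 0.26 against 16F8 and 3.06 ± 0.26 against parental, and fell in 17H5 against 16F8 (-1.11 ± 0.26) and parental (-1.18 ± 0.26). The 17H5 call against parental ended without parental replicate 1 (-0.78), and that against 16F8 without either 17H5 array or 16F8 replicate 1 (-0.97). ITGBL1, an integrin beta-like protein, read 149.5 and 119.7 in 8G12 and 8.9 and 13.9 in 17H5, against 5.6 and 6.1 in 16F8 and 22.0 and 20 in parental. NRG1, the ERBB3 ligand neuregulin, read 307.1 and 325.3 in 8G12 and 34.6 and 33.8 in 17H5, against 146.7 and 114.9 in 16F8 and 39.5 and 23.8 in parental, so 8G12 lay highest and 17H5 at the parental level. ITGB8, an integrin subunit that activates latent TGF-beta, was higher in 8G12 alone, by 1.77 against 16F8 and 1.77 against parental. PUDP, a pseudouridine phosphatase, was lower in 8G12 alone, with 128.9 and 155.8 there and 370.6 and 331.7 in 17H5, against 458.3 and 464.7 in 16F8 and 410.4 and 319.2 in parental.

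In 17H5 ARAF, a RAF kinase of the MAPK pathway, read 24.9 and 9.7, and in 8G12 85.5 and 83.3, against 99.6 and 91.8 in 16F8 and 97.6 and 76.0 in parental. In 17H5 it fell against 16F8 (-2.45 ± 0.27) and parental (-2.30 ± 0.27). GARIN5A fell in 17H5 against 16F8 (-3.51 ± 0.33) and parental (-4.13 ± 0.33), with signals of 3.6 and 2.0. In 8G12 GARIN5A was also lower against parental, by less (-1.14, limma adjusted p = 0.0218), a call lost without either 8G12 array or parental replicate 1. CXCL8, the neutrophil chemokine interleukin-8, read 67.3 and 61.4 in 8G12 and 155.2 and 157.6 in 17H5, against 52.4 and 44.1 in 16F8 and 135.5 and 112.7 in parental. It rose by 1.66 ± 0.16 in 17H5 against 16F8 and fell by 0.92 ± 0.16 in 8G12 against parental. PTGS2, the inducible cyclooxygenase, read 25.6 and 42.7 in 8G12 and 102.9 and 110.2 in 17H5, against 15.9 and 15.5 in 16F8 and 25.6 and 26.9 in parental, and rose in 17H5 against both references (2.60 ± 0.31 and 1.93 ± 0.31). Of 17 tested NF-kB and inflammatory genes, 6 were higher and 1 lower in 17H5 against 16F8, and 3 higher and 1 lower against parental. The higher calls in 17H5 were 35.3% of the list against 16F8 and 17.6% against parental, beside 4.43% and 6.87% of all genes. The lower calls in 17H5 were 5.88% against each reference, beside 4.12% for 16F8 and 4.96% for parental. In 8G12, 5 (29.4%, beside 7.05% of all genes) were lower and 0 higher against parental, and 3 were lower without 8G12 replicate 2 or parental replicate 2. The 3 higher calls in 17H5 against parental, CXCL1, CXCL2 and CXCL3, went to 0 when any of those 4 arrays was left out.

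Some genes marked parental rather than a genotype. SPX, a peptide hormone, read 7.8 and 6.5 in 8G12 and 44.5 and 51.8 in 17H5, against 4.7 and 3.8 in 16F8 and 312.0 and 278.4 in parental. ANXA10, an annexin of gastric epithelium, read 0.8 and 1.5 in 8G12 and 2.1 and 4.9 in 17H5, against 2.7 and 0.0 in 16F8 and 243.3 and 169.6 in parental. ANXA10 fell against parental in 8G12 (-5.95 ± 0.78) and 17H5 (-5.22 ± 0.78), and 16F8 minus parental was -5.97 ± 0.78. Of the R140Q and wild-type clones only parental met the filter for testing in ANXA10. NRP1, a co-receptor for semaphorins and VEGF, read 9.3 and 7.8 in 8G12 and 20 and 18.9 in 17H5, against 4.1 and 0.6 in 16F8 and 103.2 and 80.6 in parental. It fell against parental in 8G12 (-3.12 ± 0.27) and 17H5 (-2.11 ± 0.27) and rose against 16F8 by 2.37 ± 0.27 in 17H5. Against 16F8 its rise in 8G12 (1.35) ended without 16F8 replicate 2 (0.77) or either 8G12 array.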

How the data were processed

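Each clone was measured on 2 one-colour Affymetrix arrays of 54675 probe sets. The authors deposited probe set intensity values as MAS5 signals, per the submitters' processing notes and the file's value table. Its version is not given in the sources used here, nor its settings, and detection calls were not used here. Of the probe sets, 41091 carried 1 gene symbol in the platform annotation, 1801 several and 11721 none, and 62 were controls. Signals were taken as log2(signal + 2.2), the 25th percentile of all values. A probe set was kept when both arrays of at least 1 clone reached the array median, and the probe set of highest mean stood for its gene.

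Linear models were fitted with limma 3.58.1 in R 4.3.3 (lmFit, eBayes with a trend), with p-values two-sided, adjusted by Benjamini-Hochberg over all 12541 genes, and a threshold of 0.05. Pairs of clones were compared in 1 fit of all 18 arrays (9 residual degrees of freedom), which says nothing of genotypes by itself. The 4-comparison test took the largest of the 4 p-values where all 4 differences had 1 sign. Genotypes were compared on 9 clone means (4 residual degrees of freedom), and R140Q with all other mutants in a fit of 3 arms (6). The 38 lists (975 genes) were described by counts and medians, and other alternatives were tried as given at the end. The scripts were tested on simulated data. Replicate numbers did not pair the arrays: the correlation of replicate 1 deviations ran between -0.42 and 0.408 across the 36 clone pairs. It was 0.377 to 0.408 among 16F8, parental and 2C11 and -0.42 to -0.282 between 8G12 and these. In those clones the array with more poly-A control was replicate 1, and in 8G12 replicate 2.

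Named genes are IDH1, IDH2, ZEB1, CDH1, VIM and EPCAM; genes with all arrays apart and the widest gap, up to 8 in each direction; the 3 smallest p-values of the genotype test; the 3 highest and 3 lowest calls of each single comparison; and list members with the smallest p-values. PIK3R1 was added after its values were seen. Genes on the Y chromosome or lacking an official symbol were left unnamed. The clones, gene lists and tests were chosen with earlier results of these data known. Plots used matplotlib 3.10.9 (Python 3.11.15).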

Additional observations from a re-analysis of the deposited data

Results flagged for a closer look

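The 33 results below are genes named from the single comparisons. In each the difference between the R140Q clones, 17H5 minus 8G12, itself passed limma's adjusted p of 0.05 (6.45e-08 to 0.0433). In these genes the clones did not share 1 effect against the same references. Among all genes 422 (3.36%) passed. Some genes were named as the highest or lowest calls of 1 clone, so a difference between the clones is in part built into the choice. Each value is a log2 difference between 2 arrays and 2 arrays, and the cause was not tested. Genes higher in 17H5 than in 8G12 included stress and amino acid response genes: TRIB3 by 1.49, DDIT3 by 1.28, SESN2 by 1.12, SLC7A11 by 1.08, ATF3 by 0.72 and ASNS by 0.56. The inflammatory and growth factor genes PTGS2 (1.62), CXCL2 (1.55), CXCL3 (1.43), CXCL8 (1.25) and HBEGF (1.17) were also higher in 17H5. So were SPX (2.43), CALCB (1.98), SYTL5 (1.83), LDB2 (1.75), PUDP (1.29), KDM7A (1.07), AJUBA (0.79), LAMB3 (0.77), NT5E (0.74) and DNMT1 (0.51).

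Genes lower in 17H5 than in 8G12 were led by APOBEC3G (-4.24), ITGBL1 (-3.35), NRG1 (-3.13) and GARIN5A (-2.99). TGFBI (-2.65), ARAF (-2.27), ITGB8 (-1.87) and SEMA3A (-1.36) followed. The other lower genes were JMJD6 (-1.03), KRT23 (-0.91), FEN1 (-0.70) and PCNA (-0.40), of which FEN1 and PCNA serve DNA replication.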

How the results depend on the processing

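The R140Q against wild-type genotype test called 0 genes under all alternatives except parental alone (16) or 16F8 alone (1) as wild type. The test over 4 comparisons gave 1 gene with an offset of 50, 1 with the low poly-A arrays alone, 724 and 33 with parental or 16F8 alone, and 11 and 38 with 8G12 or 17H5 alone. Fewer contrasts have to pass in those last 4. Against R172K there were 75 genes with the replicate block, 55 with the poly-A term, 80 with the clone as a random block, and 3 each with parental or 16F8 alone. Against the other mutants there were 1 and 11 with offsets of 10 and 50, 2 with no filter, 1 with a stricter filter, 3 with the probe set of highest variance, 3 with no variance trend, 214 with the replicate block, 168 with the poly-A term, 254 with the clone as a random block, 18 each with parental or 16F8 alone and 1 with 17H5 alone. The block and term fits took arrays in place of clone means as the unit. Replicate numbers share only a number across clones, and with the replicate block 205 of the named gene results kept direction and call, 3 lost it and 5 gained it. The low poly-A arrays alone, with fewer arrays, gave 1324 calls for 8G12 against parental, 34 against 16F8, 953 for 17H5 against parental and 593 against 16F8, and 2349 genes with the arrays apart. The 4 clones alone gave 954 and 626 for 17H5. Leaving out 1 array in turn gave 0 to 0 genotype calls, 0 to 1 over 4 comparisons, 0 to 0 against R172K, 0 to 7 against the other mutants, 1248 to 2325 and 36 to 83 for 8G12 against parental and 16F8, 506 to 1496 and 282 to 1113 for 17H5, and 720 to 1136 genes with the arrays apart. Of 205 calls of named genes between clones, 134 held in every such fit. Direction turned with the probe set of highest variance in EFNA5 against parental (-0.66 in 8G12, -0.60 in 17H5), LSS in 17H5 against parental (-0.038) and SLC11A2 in 17H5 against 16F8 (0.22). With 2 arrays per clone and 2 clones per genotype, a difference between genotypes cannot be told apart from one between clones, and signals near 0 carry little information on size.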
